A study of Sus scrofa with 6 samples.

Results

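The genes described here are those by which T cells, B cells and natural killer (NK) cells are recognised, read in renal medulla of pigs 24 hours after cardiopulmonary bypass (CPB) or a sham procedure. A list of 58 names was used, in which IGJ is the older name of JCHAIN, so that it holds 57 distinct genes. A probe set, the group of short probes by which the array reads a transcript, was taken as a member when the array annotation gives it 1 gene symbol and that symbol is on the list. This rule found 47 of 24123 probe sets, for 31 of the 57 genes. Another 26 genes have no probe set under the rule, among them the B cell markers MS4A1, CD79A, CD22 and PAX5, the granzymes GZMA, GZMB and GZMK, the NK cell genes NKG7, KLRB1 and KLRD1, and the T cell genes ZAP70, CD5, CD6, CD7, CD28, ICOS, TCF7 and BCL11B. Of the 47, 3 are control probe sets of the array that read CTLA4, and the other 44 entered the comparison of groups.

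Medulla came from 6 pigs, 3 Sham and 3 CPB, each on its own Affymetrix porcine array. Sham animals had 2.5 hours of general anaesthesia, and CPB animals had bypass of 2.5 hours under general anaesthesia. The labels give the breed as White-Landrace crossbred, and the study's methods as Large White-Landrace crossbred, and describe the animals as adult, female and farm-bred. By those methods both groups also had a dissection of the neck and systemic heparin and were woken after the procedure, and the kidney was taken under a second anaesthetic. Sham is therefore a control for anaesthesia, surgery and heparin, not for an untreated kidney. All values are RMA intensities, a background-corrected and normalised brightness with no unit, and they cannot be compared between different probe sets. In pieces of whole tissue, fewer cells of a type and less RNA per cell cannot be told apart.

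T cells recognise antigen through a receptor whose signal is carried by the CD3 chains and CD247, with CD4 or CD8 as co-receptor, and pass it on through the kinase LCK and the adaptor LAT. Cytotoxic T cells and NK cells kill targets with granules that hold perforin, granzymes and granulysin, and NK cells and many CD8 T cells carry the activating receptor KLRK1. B cells signal through CD79A and CD79B, and their descendants, the plasma cells, secrete antibody, whose polymers are joined by JCHAIN. The healthy kidney holds few lymphocytes, with T cells prominent among them.

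Most of these transcripts lay at a level at which the array can hardly tell signal from background, and so did 49.8% of all probe sets fitted. The values carry no detection calls, so a working limit was taken from 48 measured genes of other tissues: a probe set is called near background when its mean log2 intensity is at or below their 90th percentile, 6.58 on the log2 scale or 95.7 in intensity. Near background were 17 of the 31 genes by the probe set with the highest mean of each, and 26 of 44 probe sets, where 49.8% of all 23999 probe sets fitted were. These genes are CD3G, CD4, CD8B, LCK, SH2D1A, CD38, CD69, CD27, CD40LG, CTLA4, PRF1, IFNG, KLRK1, FOXP3, LEF1, BTK and CD79B. Above the limit were CD3D, CD3E, CD247, CD8A, LAT, PRKCH, CD2, CD86, GNLY, GZMH, GATA3, JCHAIN, CORO1A and RAC2. Above the limit were thus 4 of the 7 genes of the receptor complex. Of these CD3E and CD8A pass only with CPB 2, since their mean log2 intensity over the other 5 arrays is 6.41 each, and so does 1 probe set of GATA3, at 6.52. Of the 48 genes of other tissues 5 passed the limit, a number set by the 90th percentile, from SFTPC at 6.70 to HRG at 7.05. Within this range lay CD3E at 6.71, GZMH at 6.72, CD8A at 6.77, CD247 at 6.81 and LAT at 6.93. CD86 at 7.05 and PRKCH at 7.06 were at its upper end. The NK lectin receptor measured, KLRK1, lay near background by its mean and passed the limit on 1 array, and of the 3 B cell genes measured JCHAIN alone was above it.

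**Figure D1:**
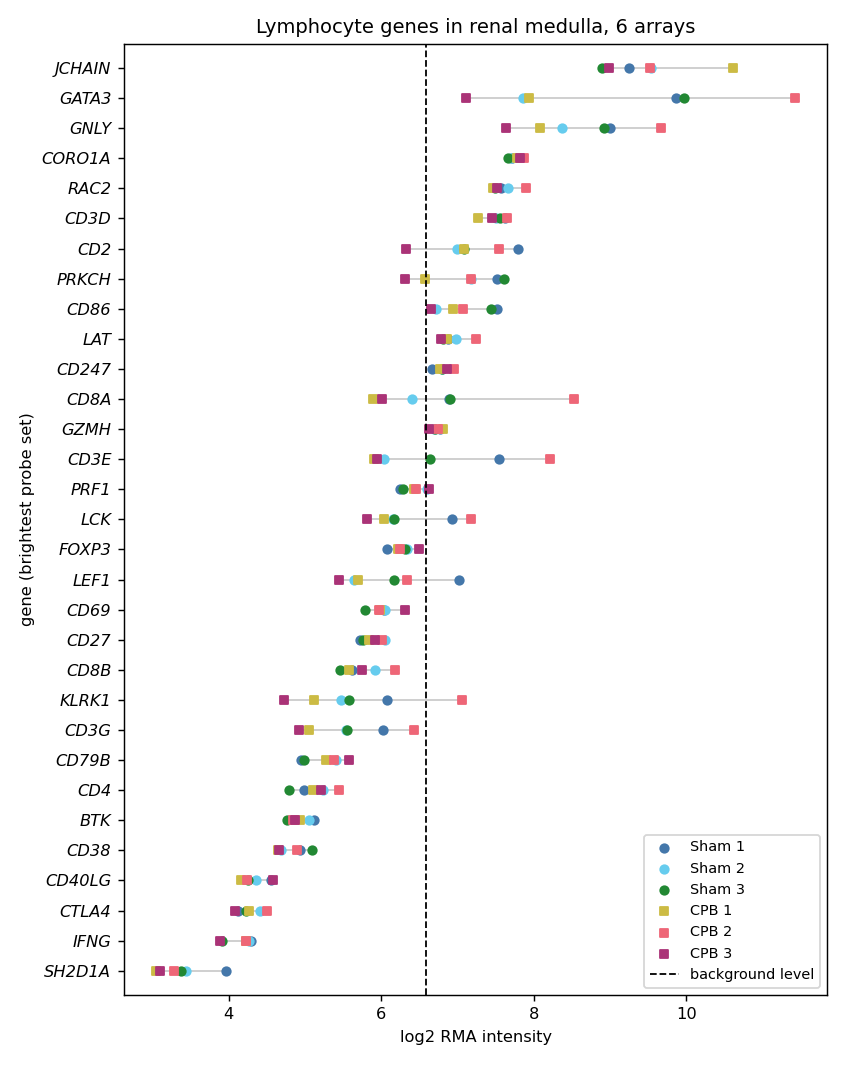
Log2 RMA intensity (horizontal axis) of the 31 measured genes, 1 probe set per gene, on each of the 6 arrays; circles are Sham, squares are CPB, and the dashed line is the working background level of 6.58. Genes are ordered by their mean, which has no meaning between different probe sets; CPB 2 lies to the right of the other arrays for CD8A, CD3E, KLRK1, GNLY and GATA3, and CPB 1 for JCHAIN.

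None of the lymphocyte genes passed the test between CPB and Sham after adjustment. Of 19 T and NK cell genes, those of receptor, signalling, surface, cytotoxic and NK receptor function, 4 were at least 1.5-fold higher on CPB 2 than on the next array. These were CD8A, CD3E, GNLY and KLRK1, at 1.58-fold to 3.11-fold, where 1.29% of all probe sets were so. CD2, PRKCH, GZMH and PRF1 were among those highest on other arrays. In the limma fit 0 of 44 probe sets passed an adjusted p of 0.05, as did 0.0% of all 23999, and the smallest adjusted p was 0.995. An unadjusted p under 0.05 was reached by 1 of 44, where 1.4% of all probe sets did. In the methods' t-test on the same log2 values it was 1 of 44 as well, where 2.08% of all did, but that one was a probe set of CORO1A, higher in CPB, and not PRKCH. The criteria of the study's methods, a difference of 1.6-fold or more and an unadjusted p under 0.05, are called the study's threshold here. By the methods' t-test 0 of 44 met them. In limma, the fit used unless stated, 1 of 44 met them, PRKCH, which was lower in CPB. Over all probe sets 0.304% met it, 0.217% lower and 0.0875% higher in CPB. The means were higher in CPB for 21 of 44 probe sets (47.7%), where 55.9% of all were, and the median log2 difference over the 31 genes was -0.040, against 0.027 over all probe sets. With 3 arrays in each group, the smallest p of a two-sided exact permutation test is 0.1.

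**Figure D2:**
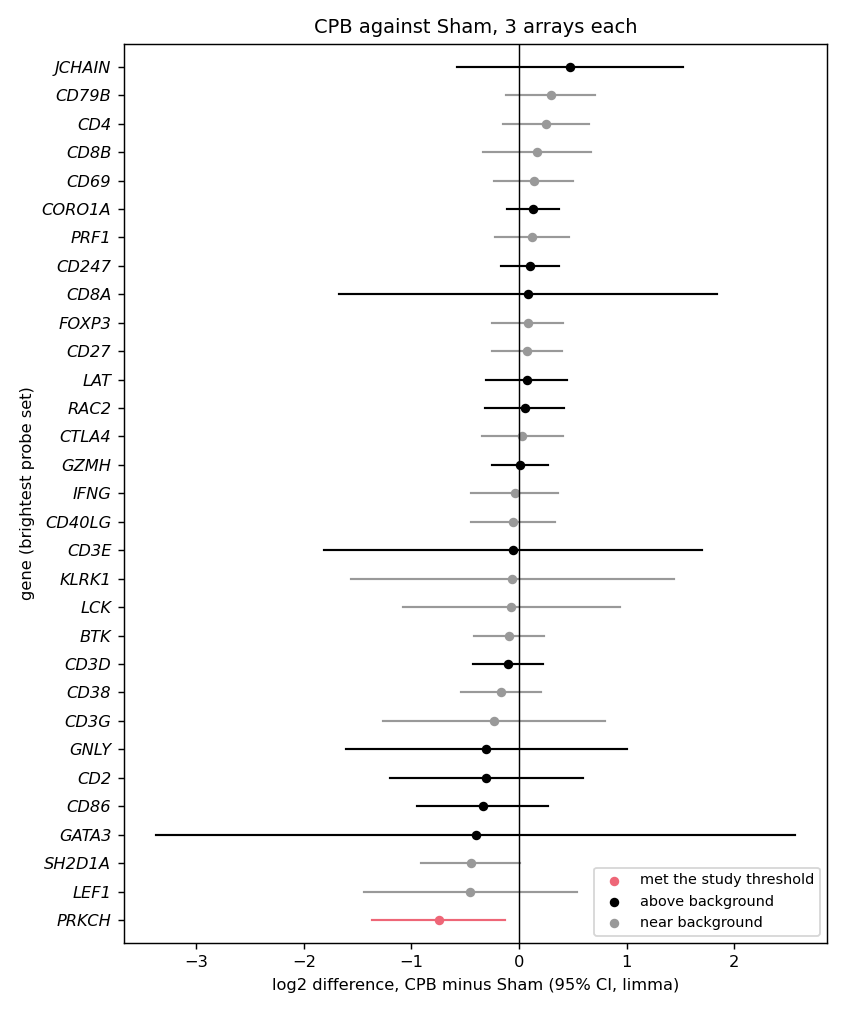
Log2 difference, CPB minus Sham, of the 31 genes (points) with the 95% confidence interval from limma (lines), 3 arrays per group. PRKCH, in red, lies below 0 with an interval of -1.36 to -0.13; the widest intervals, those of GATA3, CD3E, CD8A and KLRK1, each span 0.

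The receptor complex of T cells was measured in full. By the probe set with the highest mean all 7 of its genes were highest on CPB 2, where 20.8% of all probe sets were. For CD3D, CD247, CD4 and CD8B the lead over the next array was only 1.02-fold to 1.19-fold. CD3E, a signalling chain of the receptor, read 187, 65.8 and 99.8 on Sham 1, 2 and 3 and 59.9, 296 and 61.6 on CPB 1, 2 and 3. The groups overlapped completely, since CPB 2 was the highest and CPB 1 and CPB 3 the lowest of the 6. The log2 difference was -0.06 (standard error 0.72, 95% confidence interval -1.82 to 1.71). CD8A, a chain of the co-receptor of cytotoxic T cells, read 118, 84.6 and 119 in Sham and 59.2, 370 and 64.3 in CPB. CPB 2 was 3.11-fold above the next array, Sham 3, and the other CPB arrays lay below every Sham array. The log2 difference of CD8A was 0.08 (standard error 0.72, interval -1.68 to 1.84). CD3G, another chain of the receptor, was near background, with 64.7, 46.2 and 46.9 in Sham and 33.2, 85.9 and 30.3 in CPB. Its order of arrays was close to that of CD3E, with CPB 2 highest and Sham 1 second, and the difference was -0.23 (standard error 0.42).

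The remaining genes of the complex varied far less between arrays. CD3D, whose gene lies between those of CD3E and CD3G in the pig assembly Sscrofa11.1, read 197, 181 and 188 in Sham and 154, 200 and 175 in CPB. Its highest value was 1.3-fold above its lowest, where for CD3E the ratio was 4.94-fold. CD247, the zeta chain, read 102, 111 and 111 in Sham and 109, 124 and 116 in CPB on the probe set with the highest mean (log2 difference 0.11, standard error 0.11). Its 3 other probe sets were near background, differed by -0.13 to 0.29 and were highest on Sham 2, CPB 2 and Sham 3. CD8B, the partner of CD8A and its neighbour in the assembly, was near background, with 49.1, 60.7 and 43.9 in Sham and 47.9, 72.4 and 53.8 in CPB. The co-receptor of helper T cells, CD4, read 31.6, 37.6 and 27.7 in Sham and 34.4, 43.7 and 36.9 in CPB, all below the background limit. So a wide spread was seen for CD3E, CD8A and, at low intensity, CD3G, and not for CD3D, CD247, CD8B or CD4. Whether the flat probe sets measure their transcript at these levels cannot be read from the deposited values.

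In receptor signalling, PRKCH was the one gene to meet the study's threshold. It encodes protein kinase C eta, which is found in T cells and also in epithelia. Its probe set is in the study's published list of changed genes, which was chosen on these same arrays and calls it protein kinase C theta, so its direction is not independent evidence. PRKCH read 183, 145 and 196 in Sham (mean 174 ± 26.5, SD, n = 3) and 95.1, 145 and 79.7 in CPB (107 ± 34.2, SD, n = 3). CPB 1 and CPB 3 lay below all Sham arrays, and CPB 2 overlapped with the lowest of them, Sham 2. The difference of -0.75 (standard error 0.25, interval -1.36 to -0.13) had an unadjusted p of 0.025 and an adjusted p of 0.995 in limma. It missed the unadjusted threshold in the methods' t-test on log2 values and, in limma, without Sham 1, Sham 3, CPB 1 or CPB 3, where the difference was -0.71 to -0.56.

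LCK, the kinase that starts the receptor's signal, was near background by its mean. It read 122, 70.9 and 71.5 in Sham and 65.4, 145 and 56.4 in CPB, and passed the background limit on Sham 1 and CPB 2 alone. LAT, the adaptor downstream, read 118, 126 and 112 in Sham and 117, 151 and 110 in CPB, with CPB 2 1.2-fold above the next array. Their differences were -0.07 (standard error 0.41) and 0.07 (standard error 0.15). SH2D1A, an adaptor of lymphocyte activation, was the 1 probe set with all CPB arrays below all Sham arrays, at 15.6, 10.8 and 10.3 against 8.24, 9.67 and 8.54. Its mean lay above that of only 5.28% of probe sets. In all, 2 of 44 probe sets had groups that did not overlap, where 5.27% of all did, and 1 of 44 was lower in CPB on every array, where 1.89% of all were.

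Among the surface proteins, CD2, an adhesion receptor of T and NK cells, read 221, 128 and 135 in Sham and 136, 187 and 79.8 in CPB. Sham 1 was highest and CPB 2 second, and the difference was -0.30 (standard error 0.37). CD69, an early activation marker, and CD38, an enzyme of activated lymphocytes and plasma cells, were near background, with ranges of 55.0 to 79.6 and 25.0 to 34.1 over the 6 arrays. Of the co-stimulation genes CD86, a ligand of CD28 and CTLA4 on antigen-presenting cells, was above background, with 182, 105 and 173 in Sham and 122, 134 and 100.3 in CPB. Sham 1 and Sham 3 were above all CPB arrays and Sham 2 was within their range (difference -0.34, standard error 0.25). The receptor CD27 ranged from 52.5 to 66.1, the T cell ligand CD40LG from 17.9 to 24.0, and the inhibitory receptor CTLA4 from 16.9 to 22.7. The 3 control probe sets for CTLA4 had ranges of 33.5 to 43.7, 60.5 to 79.2 and 40.1 to 53.1, all near background.

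Among the cytotoxic genes GNLY alone had a wide spread between arrays. GNLY, which encodes the granule protein granulysin, known in pigs as NK-lysin, read 512, 330 and 484 in Sham and 270, 811 and 199 in CPB. CPB 2 was 1.58-fold above Sham 1, and CPB 1 and CPB 3 were below every Sham array, so the groups overlapped and the difference was -0.30 (standard error 0.54, interval -1.61 to 1.00). KLRK1, the receptor NKG2D, read 67.1, 44.2 and 47.5 in Sham and 34.7, 134 and 26.5 in CPB, and CPB 2 alone exceeded the background limit. It was 2.00-fold above the next array, and the 6 arrays fell in the same order as for GNLY, CD3G and LCK. GZMH, a granzyme, did not share this spread and read between 98.4 and 112 on all arrays. PRF1, perforin, read between 75.7 and 98.6 near background with CPB 3 highest, and IFNG, the interferon of T and NK cells, between 14.7 and 19.5.

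**Figure D3:**
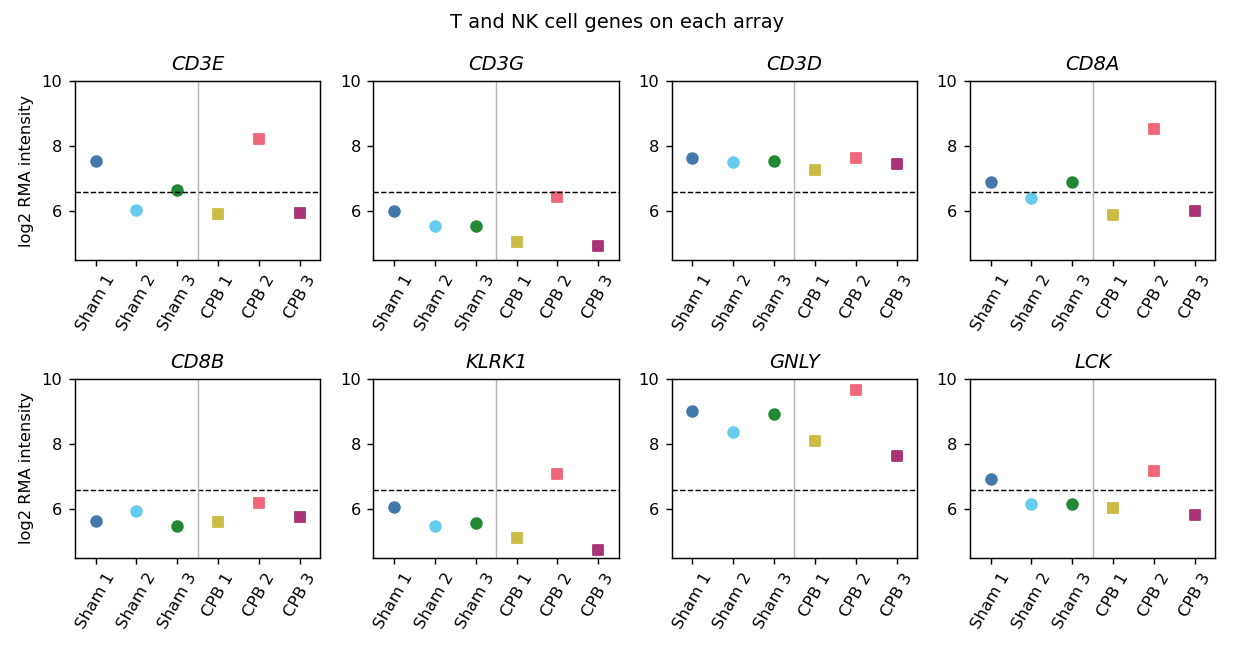
Log2 RMA intensity (vertical axis) of 8 T and NK cell genes on each array, Sham as circles and CPB as squares; the dashed line is the background level of 6.58. CPB 2 is highest in every panel, by 3.11-fold over the next array for CD8A and 1.02-fold for CD3D. CPB 1 and CPB 3 are the lowest for CD3E, CD3G, CD8A, KLRK1, GNLY and LCK. The panels hold only genes that were highest on CPB 2, as 11 of the 19 T and NK cell genes were. CD2, PRKCH, GZMH and PRF1, highest on other arrays, are among those not drawn.

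GATA3, a transcription factor of T helper cells that is also made by urothelium and by the collecting duct, had the widest spread of all members. On the probe set with the highest mean it read 935, 232 and 999 in Sham and 245, 2765 and 139 in CPB, with CPB 2 2.77-fold above Sham 3. Its 3 other probe sets were also highest on CPB 2, and the 4 differences ran from -0.46 to 0.07 with standard errors of 0.34 to 1.22. Unlike for CD3E and GNLY, Sham 3 and not Sham 1 was the second highest array on all 4. LEF1, a transcription factor of the Wnt pathway and of early T cells, was near background and stood out on Sham 1, at 130, 49.7 and 72.1 in Sham and 51.7, 80.9 and 43.6 in CPB. FOXP3, the factor of regulatory T cells, stayed between 67.4 and 89.9 near background.

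Among the 3 B cell genes JCHAIN alone stood out on an array. It read 610, 743 and 478 in Sham and 1569, 735 and 505 in CPB. JCHAIN was highest on CPB 1, 2.11-fold above the next array, and CPB 2 and CPB 3 lay within the Sham range. The difference was 0.48 (standard error 0.43, interval -0.57 to 1.52). CD79B, a chain of the B cell receptor, read 30.9, 42.5 and 31.7 in Sham and 38.8, 41.6 and 47.5 in CPB (difference 0.29, standard error 0.17), and BTK, a kinase of B and myeloid cells, ranged from 27.0 to 34.6. Both were near background on all 6 arrays.

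CORO1A and RAC2, an actin regulator and a small GTPase of all blood leukocytes, were above background. One CORO1A probe set was the 1 of 44 that was higher in CPB on every array, where 3.38% of all were, at 209, 207 and 203 in Sham and 219, 234 and 226 in CPB, a difference of 0.13 (standard error 0.10, interval -0.11 to 0.37). Its 2 other probe sets differed by -0.16 and -0.11 with overlap, so the order was not shared by the gene's probe sets. RAC2 read 190, 203 and 181 in Sham and 177, 238 and 184 in CPB on the probe set with the highest mean. Its other probe set was near background, at 23.7 to 32.3, and was highest on CPB 3.

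Read array by array, the highest lymphocyte values were most often those of CPB 2. Of the 44 probe sets 22 (50.0%) were highest on CPB 2, where 20.8% of all probe sets were. Standing out, set as at least 1.5-fold above the next array, was seen on CPB 2 for 6 of 44 (13.6%), against 1.29% of all probe sets. These 6 are CD8A, CD3E, KLRK1, GNLY and 2 probe sets of GATA3, and without GATA3 they are 4 of 40. Elsewhere JCHAIN stood out on CPB 1, where 0.258% of all did, and LEF1 on Sham 1, where 1.51% did, so that 8 of 44 stood out on some array, where 5.3% of all did. Just below the limit lay another GATA3 probe set at 1.45-fold and SH2D1A at 1.44-fold. These counts are descriptions of 6 arrays, and probe sets on 1 array share its tissue piece and RNA, so no test was made.

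Other arrays were ordered too. Of the 19 genes of T cell receptor, signalling, surface, cytotoxic and NK receptor function 11 were highest on CPB 2, 9 were second highest on Sham 1, where 16.9% of all probe sets were, and 9 were lowest on CPB 3. Over all 44 probe sets 19 (43.2%) were lowest on CPB 3, against 18.4%. The mean log2 intensity of the 7 receptor complex genes, each centred on its own mean, was 0.73 on CPB 2 and 0.15 on Sham 1, and between -0.38 and -0.08 on the other 4. For the 4 signalling genes it was 0.39 on Sham 1 and 0.29 on CPB 2, with -0.43 on CPB 3 and -0.30 on CPB 1.

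**Figure D4:**
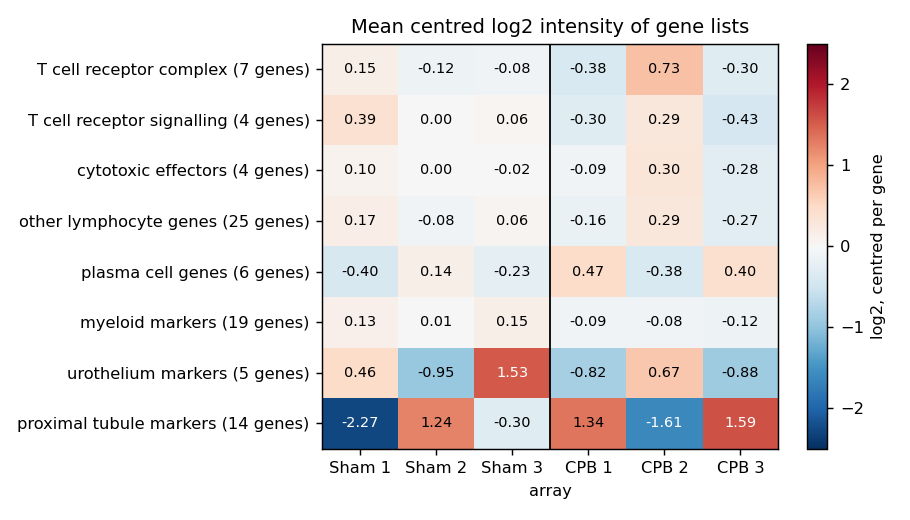
Mean log2 intensity of gene lists (rows) on each array (columns), each gene centred on its own mean over the 6 arrays and read by the probe set with the highest mean; red is above and blue below that mean, with a vertical line between the groups. The T cell receptor complex is at 0.73 on CPB 2, while urothelium markers are highest on Sham 3 at 1.53 and proximal tubule markers lowest on Sham 1 at -2.27.

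Of 77 further lymphocyte genes 25 were measured, 13 of them near background by the probe set with the highest mean. By that probe set 9 of 25 were highest on CPB 2, where 20.8% of all probe sets were, 5 each on Sham 1 and Sham 3 and 3 each on Sham 2 and CPB 3. Lowest on CPB 3 were 11 of 25, where 18.4% of all were, and 7 were lowest on Sham 1. Their median difference was -0.03, and none passed the adjusted p. CCL5, a chemokine of activated T and NK cells, read 548, 258 and 444 in Sham and 219, 1010 and 190 in CPB. CXCR6, a receptor of tissue-resident T cells, was near background by its mean and passed the limit on CPB 2 alone. It read 51.4, 38.9 and 42.3 in Sham and 35.7, 129 and 28.2 in CPB. CPB 2 was thus 1.84-fold and 2.51-fold above the next array, and both genes are named here because of these values. By that probe set none of the 25 met the study's threshold, but 1 of all their 39 probe sets did, another one of CD53, a membrane protein of leukocytes. It read 260, 187 and 313 in Sham and 135, 175 and 134 in CPB, without overlap (difference -0.76, standard error 0.23, interval -1.31 to -0.20, limma adjusted p = 0.995). It is in the study's published list, which was chosen on these arrays. On the probe set of CD53 with the highest mean, which did not meet the threshold, the difference was -0.64 (standard error 0.31). The next smallest p by gene were those of CXCR4 (-0.23, standard error 0.14), BLNK (-0.41, standard error 0.26) and PLCG1 (-0.27, standard error 0.19). PTPRC, the common leukocyte antigen CD45, was near background and read 66.4, 52.1 and 81.3 in Sham and 53.3, 69.6 and 66.4 in CPB, with Sham 3 and not CPB 2 highest.

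The arrays also differed in tissue. For the labelled tissue, 8 of 10 measured medullary tubule markers were above background. The summed intensity of 14 proximal tubule markers, of 23 listed, was 3302 to 33108 in Sham and 4822 to 39631 in CPB, lowest on Sham 1 and CPB 2, the arrays with the highest CD3E. The sum of 5 urothelium markers, of 15 listed, was 1541, 472 and 3146 in Sham and 647 on CPB 1, 2856 on CPB 2 and 638 on CPB 3. Of these KRT19 and UPK3A were highest on CPB 2, and UPK1A, UPK1B and UPK2 on Sham 3, while UPK1A and UPK2 were near background. Much of the Sham 3 sum came from UPK1B, at 1208 against 116 on CPB 2. On Sham 3 CD8A read 119, CD3E 99.8 and KLRK1 47.5, against 370, 296 and 134 on CPB 2. These genes were named for standing out on CPB 2, so their lower values on Sham 3 follow from that choice. The 18 endothelial markers, of 22 listed, had sums of 3450 to 7577 in Sham and 2643 to 5664 in CPB, highest on Sham 1 and CPB 2. The part of these tissue differences in the lymphocyte values was not tested.

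Myeloid markers did not share 1 order of arrays. The sum of 19 measured myeloid markers, of 30 listed and 10 of them near background, was 3371 to 3756 in Sham and 3052 to 3108 in CPB, with 3108 on CPB 2. One gene, CYBA, a subunit of the NADPH oxidase, carried much of it, at 351, 1257 and 542 in Sham and 1121, 330 and 1117 in CPB. Without CYBA, left out after its values were seen, the sum was 3020, 2196 and 3213 in Sham and 1937, 2777 and 1935 in CPB, so that CPB 2 was above the other CPB arrays and within the Sham range. Of the 19, 4 were highest on CPB 2. FCGR2B, an inhibitory antibody receptor, and TLR2, a receptor for bacterial lipoproteins, met the study's threshold lower in CPB, where 0.217% of all probe sets did. Their differences were -1.34 (standard error 0.40) and -1.0 (standard error 0.38). Both are in the study's published list, which was chosen on these arrays, and TLR2 was near background by its mean. FCGR2B read 320, 135 and 366 in Sham and 87.1, 91.9 and 122 in CPB, without overlap.

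Plasma cell genes were also read beside JCHAIN. Of 20 listed 6 were measured, namely FKBP11, PIGR, PIM2, SDC1, TNFRSF17 and XBP1. Their median difference was 0.24, and none met the study's threshold. Means were higher in CPB for 5 of the 6, where 55.9% of all probe sets were, and XBP1 was lower (-0.10, standard error 0.19). Highest on CPB 1 were 3 genes, FKBP11, PIGR and SDC1, and 1 each on Sham 2, Sham 3 and CPB 3. SDC1 read 96.9, 305 and 275 in Sham and 650, 121 and 616 in CPB. It was lowest on Sham 1 and CPB 2, as were the proximal tubule sums, and which cells gave its signal was not tested. TNFRSF17, a survival receptor of plasma cells, read 63.3, 119 and 74.3 in Sham and 152, 78.5 and 164 in CPB, so CPB 1 and CPB 3 were highest and CPB 2 was within the Sham range (difference 0.60, standard error 0.37). The study's published list names 2 probe sets as immunoglobulin kappa chains, which the annotation used here does not list and which were therefore not members. They were picked by the study on these arrays and read here after their values were known. One read 118, 83.7 and 103 in Sham and 313, 373 and 123 in CPB, and the other 41.7, 35.9 and 45.9 in Sham and 88.4, 86.6 and 54.7 in CPB. All CPB arrays lay above all Sham arrays on both, with differences of 1.27 (standard error 0.43) and 0.87 (standard error 0.22) and an adjusted p of 0.995 in limma. The kappa chain values were high on CPB 1 and CPB 2, whereas JCHAIN was high on CPB 1 alone.

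The comparison of groups depended on CPB 2. Without it 5 of 44 met the threshold in limma, all lower in CPB, where 2.89% of all did, 1.33% lower. They were PRKCH, with a difference of -0.99 (standard error 0.19), GNLY at -0.91 (standard error 0.26), KLRK1 at -0.78 (standard error 0.24), CD8A at -0.78 (standard error 0.20) and CD3G at -0.71 (standard error 0.20). CD8A turned from 0.08 with all arrays to this value. CD3E differed by -0.82 (standard error 0.44) and GATA3 by -1.71 (standard error 0.71), and neither met the threshold. None of the 44 passed the adjusted p of 0.05, the smallest being 0.742, and the median over the 31 genes was -0.08, against 0.028 over all probe sets. Without Sham 2 the share over all probe sets was 2.92%, and the count of the members stayed at 1 of 44, PRKCH. CPB 2 is an animal of the CPB group by its label, and no label marks it as faulty. Of the CPB arrays it was the highest for each of the 5 genes. Leaving it out therefore lowers their CPB means and narrows their CPB spread by construction. The CPB arrays left, CPB 1 and CPB 3, had proximal tubule sums of 34927 and 39631, against 3302 to 33108 in Sham. In that fit group and tissue piece cannot be told apart.

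**Figure D5:**
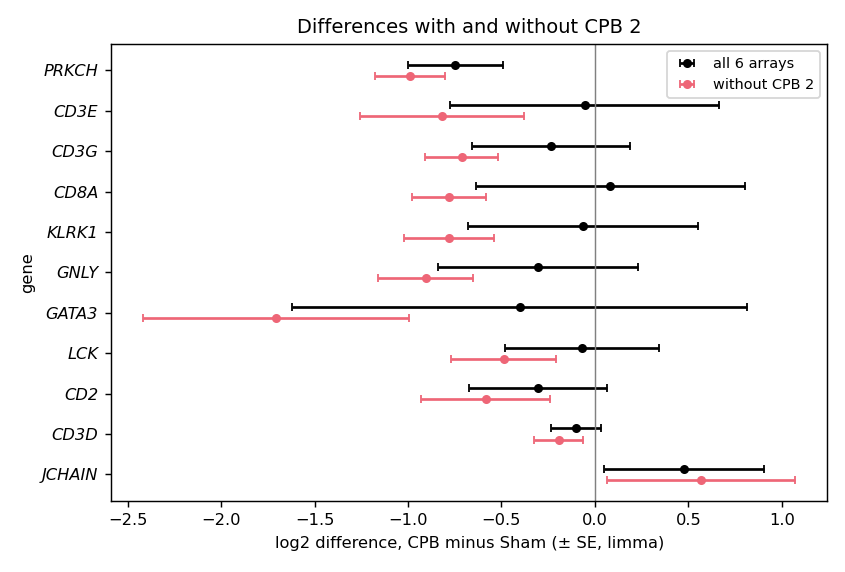
Log2 difference, CPB minus Sham, with its standard error from limma, for genes named in the text, with all 6 arrays (black) and without CPB 2 (red). Without CPB 2 the standard errors of CD3E, CD8A, KLRK1 and GNLY are smaller and their differences lie between -0.91 and -0.78. These genes stood out on CPB 2, so lower differences and a narrower CPB spread follow from leaving it out. JCHAIN stays above 0 at 0.57 without CPB 2.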

How the data were processed

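Transcripts of the renal medulla were measured in 6 pigs, 1 array each. The authors normalised the arrays with RMA in the program ArrayStar, a tool the submitters' processing notes also name, and deposited 1 intensity per probe set. The size and range of the deposited values show that they are linear intensities, and log2 of them was taken here. Array medians were 94.3 to 96.5, as the normalisation equalises the arrays, and the number of arrays limits the precision. The deposited values carry no detection calls, and scan dates were not given in the sources used here.

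Gene symbols came from the platform's annotation. It covers 10297 probe sets, 10099 with 1 symbol and 198 with several. Another 13826 are unnamed here. All 47 member probe sets keep their symbol in RefSeq (Sscrofa11.1), which was used for names and neighbours only. Positions are not given because the sources name no build for the array, and no sequences were used.

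The 124 control probe sets were left out, and the other 23999 were fitted by group in R 4.3.3 with lmFit and eBayes of limma 3.58.1. The Benjamini-Hochberg adjustment ran over all 23999. Student's t-test without adjustment and a 1.6-fold minimum are the methods' own criteria. The limma script was tested on simulated data. The labels call the samples biological replicates. The members and lists were chosen with earlier results of these data known. Values on every array are given for genes that met the study's threshold, stood out on 1 array or did not overlap, for the receptor complex and for the 2 genes with the highest means of each role, and otherwise ranges are given. From the further lymphocyte genes up to 4 with the smallest p were named and from other lists up to 2. Outside this rule fall CCL5, CXCR6, PTPRC, CYBA, the kappa chain probe sets and the urothelium markers beyond 2. FKBP11, PIGR, PIM2 and SDC1 do so too, and all of these were added after values were seen. The replicate numbers do not pair animals across groups. Counts for lists of other genes use the probe set with the highest mean of each gene unless stated. Alternatives were other tests, priors, array weights, filters, fold minimums, normalisations, background levels and each array left out in turn.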

Additional observations from a re-analysis of the deposited data

How the results depend on the processing

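The count of member probe sets past the adjusted p was 0 in every fit run. The count at the study's threshold, 1 with all arrays, was 0 by the methods' t-test on log2 or on linear values, 0 with a fold minimum of 2 and 6 with array weights, where 8.82% of all probe sets met it. The 6 were PRKCH, LEF1, GNLY, JCHAIN and 2 probe sets of GATA3, and the estimation of the weights (6.16 for CPB 1 and 0.374 for CPB 2) stopped before convergence. With each array left out in turn the count was 0 to 5, the highest without CPB 2, and the difference of CD8A ran from -0.78 without CPB 2, where it turned sign, to 0.54 without CPB 1. The numbers 1 to 3 were given to both groups, but deviations of same-numbered arrays correlated at -0.39, -0.68 and -0.02, so they share only a number, and with the replicate number as a block the count was 0 (PRKCH p = 0.073 in limma). The count of probe sets without overlap, 2, was 4 after a second quantile normalization, with PRKCH lower and RAC2 higher in CPB added, where 5.96% of all probe sets did not overlap. The count standing out, 8 with 6 on CPB 2, was 3 with 2 on CPB 2 when 2-fold was asked for (1.14% and 0.238% of all probe sets). The median difference stayed between -0.084 and 0.080 when arrays were left out, with either sign and within the spread of arrays (SD 0.131), and 14 genes were near background at the 75th percentile and 17 at the median of all probe sets. With means over the arrays other than CPB 2, a setting chosen after seeing the data, 19 were. Of the 678 values of single probe sets, 44 are those with the settings as reported, 618 kept their side of the threshold, 8 gained and 7 lost it, and CD8A without CPB 2 gained it with the other sign. In 56 of the 634 alternative values the sign differed, apart from that one for differences that met no threshold, as for CD8A with array weights (-0.79) and without Sham 2 (-0.08). Values near background, as for CD4, CD79B and IFNG, limit what could be seen.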

Other observations

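PECAM1, an adhesion protein of endothelium and leukocytes, met the study's threshold in the list of endothelial markers, lower in CPB by -0.75 (standard error 0.29). It read 1232, 708 and 927 in Sham and 533, 752 and 427 in CPB, and the groups overlapped at CPB 2. Its other probe set at the threshold differed by -0.74 (standard error 0.21) without overlap. Both PECAM1 probe sets are in the study's published list, which was chosen on these arrays. ERG, an endothelial transcription factor, read 233, 146 and 202 in Sham and 58.6, 250.3 and 70.9 in CPB, so that CPB 2 was highest and CPB 1 and CPB 3 lowest, as for CD8A and GNLY. Of 10 mast cell markers 3 were measured. KIT, the receptor of stem cell factor, read 109, 167 and 162 in Sham and 174, 96.9 and 236 in CPB, and MS4A2, a chain of the mast cell IgE receptor, was near background at 44.6 to 55.0. The summed mast cell level was 381 to 465 in Sham and 386 to 426 in CPB.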
